A study of Mus musculus with 35 samples.

Results

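Aortas of wild type (WT) mice kept on chow for 22 weeks were compared with aortas of WT mice kept on chow for 6 weeks, which gives the difference over 16 weeks of adult life in mice with neither a mutation nor a lipid-rich diet. The comparison used 6 of the 35 libraries of the study, chosen by genotype, diet and duration as the titles give them. The 3 libraries of the 22-week group came from C57BL/6 mice aged 30 weeks, and the 3 of the 6-week group from C57BL/6 mice aged 14 weeks. All mice entered the study at 8 weeks of age, and neither group carried a transgene or a deletion.

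The study sequenced total RNA of whole mouse aortas in 12 groups. They combined 3 genotypes (WT, mice without apolipoprotein E, called EKO, and EKO mice overexpressing human apoA-I, called EKO/hA-I), chow or a Western diet (WD), and 6 or 22 weeks of feeding. Blood was flushed out with saline, the vessel was taken whole, between its root and the iliac bifurcation, and the fat around it was removed. Durations were also compared in WT on WD, EKO on chow and EKO/hA-I on chow, which share no library with WT on chow and are used here only to show where WT on chow differed.

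The aortic wall consists of an endothelial lining, a media of smooth muscle cells between elastic sheets, and an adventitia with fibroblasts, resident macrophages, nerves and small vessels, next to brown fat. Most elastin and fibrillar collagen of the wall is laid down during growth and turns over slowly in the adult. Wall cells also carry a circadian clock, so that many transcripts follow the hour at which tissue is taken, and chaperone genes respond quickly to heat, unfolded proteins and handling.

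Values are normalised read counts as deposited, and differences are log2 fold changes of the value plus 1, 22 weeks minus 6 weeks, each with its standard error (SE) from limma. A gene passed when its Benjamini-Hochberg adjusted p in limma was under 0.05. Nothing in the labels ties a library to a named animal beyond the 3 aortas of a group. The p-values set each difference against the scatter of libraries within groups, estimated over all 35 libraries in 12 groups. How far that scatter is between animals or technical is not given by the labels. Between 7760000 and 16710000 reads stood behind each of the 6 libraries, as inferred from the smallest step between their values. The normalised count of 1 thus stood for 8.55 to 15.6 reads. Apoe was 697.4, 659.8 and 439.7 in the 22-week aortas and 1276, 1057 and 693.9 in the 6-week aortas, against at most 29.7 in any EKO or EKO/hA-I aorta. Y-linked transcripts were missing from replicate 1 of each group, so both groups held libraries with and without them in the same proportion.

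Markers of tissue next to the aorta and of blood varied between the 6 libraries and are shown first. Their part in the later values was not tested. Myh6, the cardiac alpha myosin heavy chain, had 3658, 70.7 and 235.5 normalised counts in the 22-week aortas and 11.99, 4.71 and 2.27 in the 6-week aortas. Myl2, the ventricular regulatory light chain, had 540.3, 18.4 and 24.1 in the 22-week aortas and 0.0856, 0.303 and 0.149 in the 6-week aortas, at or near 0. Every 22-week library thus held more cardiac transcript than every 6-week library, and replicate 1 held by far the most. The difference was 5.99 ± 1.89 for Myh6 (adjusted p 0.187) and 5.77 ± 1.38 for Myl2 (adjusted p 0.0687), so neither passed. Myl3 (5.06 ± 1.22) and Mybpc3 (4.94 ± 1.41), also of the cardiac sarcomere, did not pass either. All 15 measured cardiac muscle genes lay above 0, with a median of 2.59, which was 1.14 without 22 weeks replicate 1. Their summed level was 7302, 228.5 and 578.2 in the 22-week aortas, against 84.7, 77.6 and 107.9 in the 6-week aortas.

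Erythroid genes ran the other way. Their summed level was 1727, 1961 and 3485 in the 22-week aortas and 9060, 4549 and 11800 in the 6-week aortas, with no overlap. All 6 measured members lay below 0 (51.2% of all genes did) with groups that did not overlap (6.15% of all genes were lower in that way). Their median was -1.79, and none passed. Alas2, the first enzyme of erythroid haem synthesis, had 42.1, 64.8 and 73.0 in the 22-week aortas and 291.5, 115.9 and 293.2 in the 6-week aortas (-1.86 ± 0.56, adjusted p 0.17). Slc4a1, the anion exchanger of the red cell membrane, lay on the same side (-1.83 ± 0.58). Hba-a1 also lay there (-1.77 ± 0.57), but it shares reads with its copy Hba-a2 and is uncertain.

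Brown fat markers parted the groups only in part. Of 13 measured, 9 lay above 0 (48.8% of all genes did). For 3 of the 13 the groups did not overlap, all higher at 22 weeks (5.41% of all genes were), and none passed. Ucp1, the uncoupling protein of brown adipocytes, had 2161, 7680 and 3646 in the 22-week aortas and 3096, 1925 and 939.7 in the 6-week aortas, and 22 weeks replicate 2 was the highest of the 6. Elovl3 (2.64 ± 0.73, adjusted p 0.124) and Dio2 (1.86 ± 0.54, adjusted p 0.146), which are induced when brown fat is active, did not overlap between the groups, while the whole list of 13 genes had a median of 0.19, which was -0.15 without 22 weeks replicate 2 and -0.12 without 6 weeks replicate 3. Acta1 of skeletal muscle had 76.5, 3.48 and 3.35 in the 22-week aortas and 3.22, 3.51 and 18.9 in the 6-week aortas. Of 16 skeletal muscle genes 11 lay below 0 (51.2% of all genes did), with a median of -0.73, and none passed. For 4 of them the groups did not overlap, all lower at 22 weeks (6.15% of all genes were). Th of sympathetic neurons had 17.1, 15.5 and 4.11 in the 22-week aortas and 0.514, 14.0 and 43.2 in the 6-week aortas. Of 15 sympathetic neuron genes 13 lay above 0, all with overlap. Their median was 0.41, and it was -0.55 without 6 weeks replicate 1. In bulk tissue, fewer cells of a type and less RNA per cell cannot be told apart.

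**Figure D1:**
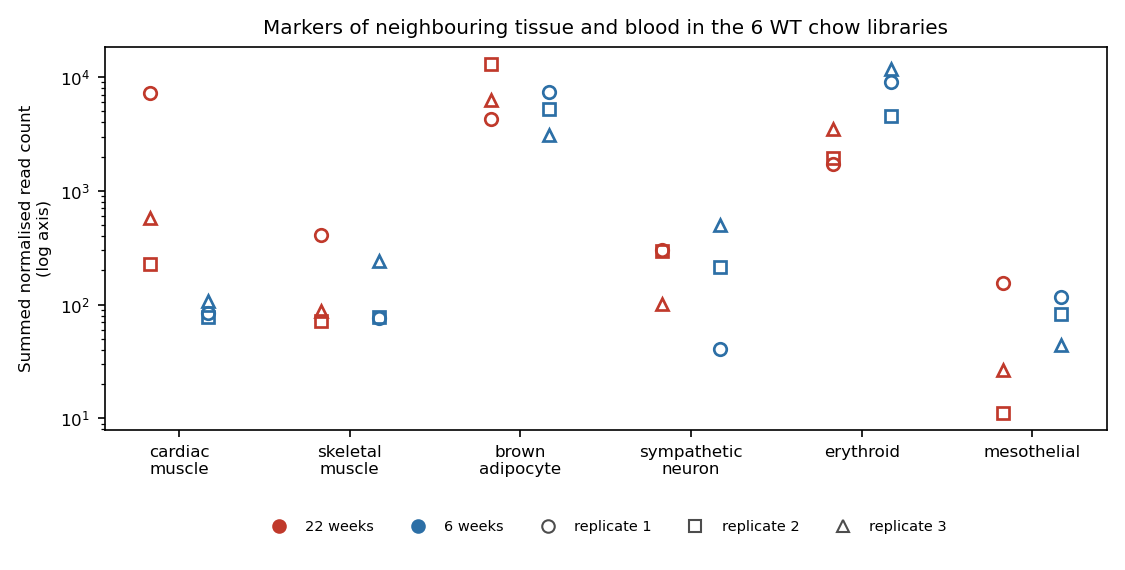
Summed normalised read counts (log axis) of 6 marker lists in the 3 aortas at 22 weeks (red) and the 3 at 6 weeks (blue), with 1 symbol per replicate number. Cardiac muscle transcripts reached 7302 in 22 weeks replicate 1 and at most 107.9 at 6 weeks, and erythroid transcripts lay between 1727 and 3485 at 22 weeks and between 4549 and 11800 at 6 weeks.

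The groups were not separated as a whole. The root mean square distance between libraries on the log2 scale was 0.572 to 0.737 within the 22-week group, 0.423 to 0.624 within the 6-week group and 0.514 to 0.734 between the groups. Replicate 2 of the 22-week group lay nearer to every 6-week library (0.566, 0.514 and 0.672) than to either library of its own group (0.689 and 0.737). Replicate 3 of the 22-week group lay nearer to replicate 3 of the 6-week group (0.549) than to either library of its own group (0.572 and 0.737). Replicate 1 of the 22-week group lay nearest to replicate 3 of its own group (0.572). Among the 4 WT groups, in a comparison chosen after the data were seen, limma called 0 genes between WT on chow for 22 weeks and WT on WD for 6 weeks (862 genes, or 6.09%, at an unadjusted p under 0.05). It also called 0 between WT on WD for 22 weeks and WT on chow for 6 weeks (802 genes, or 5.67%, unadjusted). WD against chow gave 193 genes at 22 weeks (1.36%) and 203 at 6 weeks (1.43%). The fewest calls among WT groups thus came from the 2 pairs in which both diet and duration differed. Whether group labels were exchanged, or libraries were handled on shared days, cannot be told apart from diet and duration with these files and was not tested. If labels were exchanged, every value given for 22 against 6 weeks would describe other groups than those named.

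Few genes passed in WT on chow. Of 14157 genes tested, 17 passed (0.12%), of which 5 rose (0.0353%) and 12 fell (0.0848%). After median-ratio rescaling of the values the count was 36, with 15 higher and 21 lower. At an unadjusted p under 0.05 there were 1536 genes (10.8%), and the groups did not overlap for 1637 genes (11.6%), 766 of them higher and 871 lower at 22 weeks. With a term for brown adipocyte markers in the fit 467 genes passed, all 17 among them, and with a term for cardiac muscle markers, added after the data were seen, 1 did, Ptpn13 (adjusted p 0.0078). The median difference over all genes was -0.01 and the middle 50% lay between -0.19 and 0.15. The median size of the difference was 0.17, against 0.27 for the same interval in WT on WD and 0.34 in EKO on chow.

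The genes that fell included secreted signals and a receptor. Ccl11, eotaxin, the chemokine that draws eosinophils through CCR3, had 8.53, 12.03 and 7.25 normalised counts in the 22-week aortas and 33.8, 30.5 and 24.7 in the 6-week aortas. Ccl24, a second eosinophil chemokine that acts on the same receptor, had 1.52, 1.99 and 1.04 in the 22-week aortas and 5.40, 4.70 and 3.43 in the 6-week aortas. Both were lower in every 22-week aorta than in any 6-week aorta, and Ccl11 fell by 1.59 ± 0.25 (adjusted p 0.00682) and Ccl24 by 1.13 ± 0.22 (adjusted p 0.0238) on the log2 scale. Gdf5, a ligand of the bone morphogenetic protein family, had 0.818, 1.33 and 0.642 in the 22-week aortas and 7.19, 7.20 and 4.39 in the 6-week aortas. Its fall of 1.90 ± 0.32 (adjusted p 0.011) was the largest among the 17 at a pseudocount of 1, with levels near 1 in the 22-week aortas. At a pseudocount of 5 the fall of Gdf5 was 0.92 and those of Ccl11, Fzd4 and Angpt1 were larger. Angpt1, the ligand that activates the endothelial receptor Tie2, had 6.08, 8.84 and 3.14 in the 22-week aortas and 14.3, 21.7 and 13.2 in the 6-week aortas (-1.36 ± 0.26, adjusted p 0.0238). Fzd4, a receptor for Norrin and Wnt ligands in vessels, had 44.1, 86.2 and 40.3 in the 22-week aortas and 123.4, 125.2 and 126.9 in the 6-week aortas (-1.21 ± 0.23, adjusted p 0.022). The 6-week values of Fzd4 were almost equal, whereas 22 weeks replicate 2 stood above the other aortas of its group.

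Intracellular signalling genes also fell. Ptpn13, a cytosolic protein tyrosine phosphatase, had 10.1, 6.41 and 6.16 in the 22-week aortas and 15.4, 14.5 and 14.0 in the 6-week aortas (-0.90 ± 0.15, adjusted p 0.00682). Plce1, a phospholipase C that small GTPases such as Ras activate, had 33.8, 23.8 and 28.4 in the 22-week aortas and 40.6, 47.5 and 52.2 in the 6-week aortas (-0.69 ± 0.14, adjusted p 0.0363). Gng7, a G protein gamma subunit, had 6.55, 7.96 and 8.09 in the 22-week aortas and 14.2, 14.7 and 13.5 in the 6-week aortas (-0.83 ± 0.16, adjusted p 0.022). None of these overlapped between the groups. Other falls were of enzymes and of a protein of the ubiquitin system. Selenbp1, a methanethiol oxidase, had 48.0, 45.6 and 47.5 in the 22-week aortas and 107.4, 95.6 and 76.9 in the 6-week aortas (-0.96 ± 0.15, adjusted p 0.00682). Aox3, an aldehyde oxidase, fell to 1.87, 1.88 and 0.963 in the 22-week aortas, against 6.17, 7.89 and 4.53 in the 6-week aortas (-1.48 ± 0.27, adjusted p 0.021). Fbxo36, an F-box protein, had 2.10, 2.10 and 1.99 in the 22-week aortas and 4.02, 5.08 and 3.94 in the 6-week aortas (-0.80 ± 0.16, adjusted p 0.041). Lrrn4cl (-1.12 ± 0.24, adjusted p 0.053) and Oscp1 (-0.96 ± 0.21, adjusted p 0.0538) were also lower without overlap but did not pass.

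Of the 5 genes that rose, 1 encodes a collagen and the others serve protein synthesis, RNA binding and the secretory pathway. Col7a1, the collagen of anchoring fibrils, had 14.4, 16.4 and 18.1 in the 22-week aortas and 9.59, 5.08 and 5.05 in the 6-week aortas (1.24 ± 0.23, adjusted p 0.021). Manf, a secreted factor of the endoplasmic reticulum (ER) that is induced by unfolded proteins, had 71.2, 67.6 and 77.5 in the 22-week aortas and 40.7, 42.5 and 39.0 in the 6-week aortas (0.81 ± 0.17, adjusted p 0.0429). The replicates of Manf were close together in both groups. Sec22b, a SNARE protein of transport between ER and Golgi, had 76.2, 72.0 and 80.3 in the 22-week aortas and 56.9, 58.8 and 53.2 in the 6-week aortas (0.43 ± 0.09, adjusted p 0.041). Cars, which charges transfer RNA with cysteine, had 41.3, 37.6 and 37.1 in the 22-week aortas and 28.3, 25.02 and 23.9 in the 6-week aortas (0.57 ± 0.11, adjusted p 0.022). Tial1, an RNA-binding protein of splicing and stress granules, had 118.6, 102.2 and 100.1 in the 22-week aortas and 72.4, 79.8 and 76.8 in the 6-week aortas (0.48 ± 0.10, adjusted p 0.0331). All 5 were higher in every 22-week aorta than in any 6-week aorta.

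Among genes that came close without passing, Cdkn1a, which encodes the cell cycle inhibitor p21, had 75.4, 101.5 and 116.1 in the 22-week aortas and 45.5, 29.0 and 29.1 in the 6-week aortas (1.48 ± 0.33, adjusted p 0.0548). Mb, myoglobin, had 846, 46.9 and 44.0 in the 22-week aortas and 5.65, 2.05 and 1.14 in the 6-week aortas (5.12 ± 1.15, adjusted p 0.0574). Like Myh6 and Myl2, Mb was by far the highest in 22 weeks replicate 1. Vimp, selenoprotein S of ER-associated degradation (0.44 ± 0.10), and Ccnl2, cyclin L2 (0.53 ± 0.11), were also above 0 with groups that did not overlap. So were Chrnb1, a subunit of the muscle acetylcholine receptor (0.70 ± 0.15), Rexo2, a mitochondrial RNA exonuclease (0.54 ± 0.12), and Slc26a6, an anion exchanger (0.56 ± 0.13), and the adjusted p of these 5 genes lay between 0.0538 and 0.0591.

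**Figure D2:**
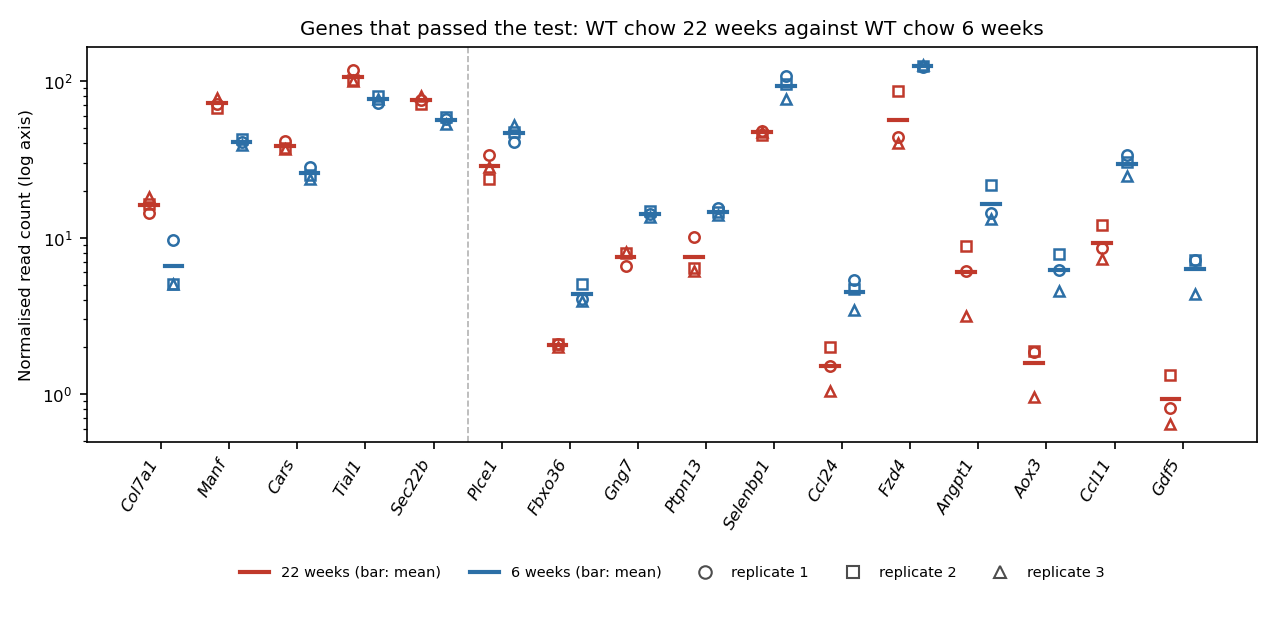
Normalised read counts (log axis) of 16 of the 17 genes that passed, with the 3 aortas at 22 weeks in red and the 3 at 6 weeks in blue, bars at the group means and 1 symbol per replicate number. The 5 genes left of the dashed line rose and the 11 to its right fell. The groups do not overlap for any of them.

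The calls rested on single libraries to a large degree. With 22 weeks replicate 2 left out the count was 91 and 16 of the 17 genes still passed, all but Plce1. With 22 weeks replicate 3 left out 3 genes passed, of which 2 were among the 17, Selenbp1 being one. Without 22 weeks replicate 1 the count was 24 (8 of the 17), without 6 weeks replicate 1 it was 10 (6 of the 17), without 6 weeks replicate 2 it was 5 (Ccl11, Ptpn13 and Selenbp1), and without 6 weeks replicate 3 it was 14 (8 of the 17). Selenbp1 passed in all 6 of these fits, with an adjusted p of at most 0.0455, but not with the term for cardiac muscle markers (adjusted p 0.138). Ccl11 and Ptpn13 each lost the call in 1 of them, without 22 weeks replicate 3, at an adjusted p of 0.052. The highest adjusted p of the other 14 genes in these fits lay between 0.0783 for Gdf5 and 0.224 for Fbxo36. No gene changed direction, and the fall of Ccl11 ranged from 1.45 to 1.78 on the log2 scale, that of Ptpn13 from 0.79 to 1.10 and that of Selenbp1 from 0.85 to 1.09. Fitted alone, the 6 libraries gave 0 genes at an adjusted p under 0.05 and 756 at an unadjusted p under 0.05.

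Manf belongs to the unfolded protein response, in which the transcription factors ATF6, XBP1 and ATF4 raise chaperones of the ER. Of 15 measured genes of this response, Manf was the 1 that passed, 12 lay above 0 (48.8% of all genes did), and 6 had groups that did not overlap, all of them higher at 22 weeks (5.41% of all genes were). Hspa5, the ER chaperone BiP, had 479.9, 509.4 and 596.8 in the 22-week aortas and 383.4, 386.1 and 377.0 in the 6-week aortas (0.46 ± 0.18, adjusted p 0.311). Calr, calreticulin, had 573.1, 484.7 and 672.4 in the 22-week aortas and 467.4, 459.7 and 429.1 in the 6-week aortas (0.34 ± 0.17, adjusted p 0.465). Atf4 had 156.2, 163.0 and 190.0 in the 22-week aortas and 141.4, 123.9 and 147.5 in the 6-week aortas (0.30 ± 0.15, adjusted p 0.47). The median of the list was 0.25, and it was 0.14 without 22 weeks replicate 3. Ddit3, Trib3 and Herpud1 lay below 0, and their groups overlapped.

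The ER stress response element is the DNA motif through which ATF6, with NF-Y, acts on chaperone promoters. Its letters, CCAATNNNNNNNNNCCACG on either strand, occurred in the 250 bases upstream of 0.113% of 32851 mouse promoters in the RefSeq table (GRCm38.p6). That share is over promoters, while the count for the list is over genes. Manf has no entry in that table and was not searched. Among the 14 genes of the list found there the motif occurred upstream of 5, namely Hspa5, Calr, Hsp90b1, Creld2 and Pdia6. All 5 lay above 0 (48.8% of all genes did). For 3 of them, Hspa5, Calr and Hsp90b1, the groups did not overlap (5.41% of all genes were higher in that way). In the whole list of 15 genes, 12 lay above 0 and 6 were higher without overlap, so most members rose with or without the motif. The motif of these 3 is shown in capitals with 20 bases on each side, read 5′ to 3′ along the gene's strand. It ends 46, 143 and 193 bases before the start of Hspa5, Calr and Hsp90b1, and in Calr it lies on the opposite strand.
Hspa5 (chr2:34772005-34772063, plus strand): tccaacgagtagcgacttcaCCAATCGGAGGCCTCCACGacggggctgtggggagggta
Calr (chr8:84847055-84847113, minus strand): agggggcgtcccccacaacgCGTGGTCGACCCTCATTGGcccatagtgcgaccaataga
Hsp90b1 (chr10:86705618-86705676, minus strand): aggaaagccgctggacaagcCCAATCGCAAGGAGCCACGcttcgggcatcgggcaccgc
Such a match describes the promoter and is no measurement of binding.

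Cytosolic heat shock genes lay on the same side with larger differences and a wider spread. Of 15 measured, 12 lay above 0 (48.8% of all genes) and 5 had groups that did not overlap, all higher at 22 weeks (5.41% of all genes), but none passed. The median was 0.60. Hspa8, the constitutive HSP70, had 1716, 2605 and 2162 in the 22-week aortas and 925.5, 963.1 and 1452 in the 6-week aortas (0.97 ± 0.34, adjusted p 0.253). Hsph1, its nucleotide exchange factor, had 109.5, 145.0 and 137.3 in the 22-week aortas and 33.6, 47.0 and 105.5 in the 6-week aortas (1.22 ± 0.51, adjusted p 0.355). Hsp90aa1, the inducible cytosolic HSP90, had 389.1, 663.1 and 458.9 in the 22-week aortas and 228.1, 272.4 and 375.1 in the 6-week aortas (0.78 ± 0.33, adjusted p 0.361). In each of these the third 6-week library was the highest of its group. Hspb8, a small heat shock protein, had 132.4, 136.3 and 164.4 in the 22-week aortas and 64.4, 98.1 and 132.3 in the 6-week aortas (0.60 ± 0.20, adjusted p 0.209). The most inducible genes, Hspa1a and Hspa1b, were among the 3 below 0. With terms for brown adipocyte, skeletal muscle, cardiac muscle and sympathetic neuron markers in the fit the median of the list was 0.22.

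Circadian clock genes differed in both directions. The clock runs on a loop in which ARNTL (BMAL1) with CLOCK or NPAS2 drives the Per and Cry repressors and the factors DBP, TEF and HLF, so the activators and these targets peak at opposite times of day. Of 20 measured clock genes, 10 had groups that did not overlap, against 11.6% of all genes, and none passed. Arntl had 24.0, 11.9 and 10.1 in the 22-week aortas and 5.91, 2.05 and 2.38 in the 6-week aortas (1.88 ± 0.75, adjusted p 0.321). Clock had 89.9, 98.8 and 64.0 in the 22-week aortas and 46.9, 52.7 and 54.5 in the 6-week aortas (0.68 ± 0.25, adjusted p 0.277). Npas2 was the other member above 0 without overlap (1.73 ± 0.88). On the other side, Per3 had 49.2, 81.7 and 81.2 in the 22-week aortas and 152.8, 152.2 and 184.1 in the 6-week aortas (-1.22 ± 0.50, adjusted p 0.342). Hlf had 29.9, 50.4 and 50.5 in the 22-week aortas and 88.8, 106.1 and 104.3 in the 6-week aortas (-1.21 ± 0.46, adjusted p 0.295). Dbp, Tef, Ciart, Bhlhe41 and Wee1 also lay below 0 without overlap. Replicate 1 of the 22-week group was the lowest of the 6 for Per3 and Hlf and the highest for Arntl. The hour of sampling is not given in the labels and was not tested. The D-box, the element bound by DBP, TEF and HLF, was searched as TTATGTAA on either strand and occurred upstream of 0.819% of promoters. Of 16 clock genes found in the promoter table, 1 held it, Per3, where it ends 197 bases before the start of the gene.
Per3 (chr4:151044843-151044890, minus strand, D-box in capitals): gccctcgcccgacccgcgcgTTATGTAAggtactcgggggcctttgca

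**Figure D3:**
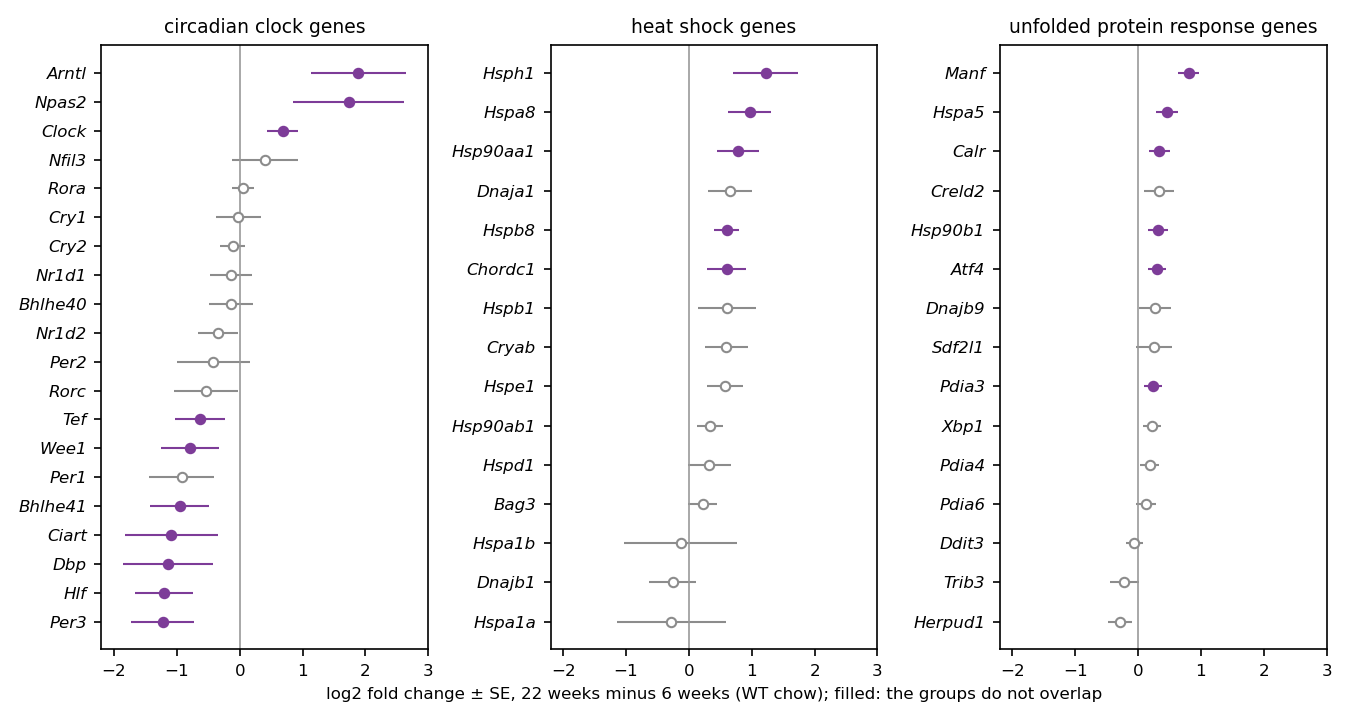
Log2 fold changes ± SE, 22 weeks minus 6 weeks in WT on chow, of the measured clock, heat shock and unfolded protein response genes, filled where the 2 groups do not overlap. Arntl, Npas2 and Clock lie above 0 and 7 clock genes below it without overlap, while 12 of 15 heat shock and 12 of 15 unfolded protein response genes lie above 0; Manf is the gene that passed.

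Genes of immune cells and of complement mostly lay below 0, and no gene of these lists passed. Complement, the protein cascade that tags particles for uptake, had all 14 measured genes below 0 (51.2% of all genes were) with a median of -0.68, and 7 had groups that did not overlap (6.15% of all genes were lower in that way). C1s1, a protease of the first complement component, had 119.8, 104.6 and 80.5 in the 22-week aortas and 171.1, 197.0 and 153.3 in the 6-week aortas (-0.78 ± 0.18, adjusted p 0.0606). C2 had 21.7, 15.2 and 9.50 in the 22-week aortas and 38.4, 37.2 and 25.9 in the 6-week aortas (-1.13 ± 0.31, adjusted p 0.123). Cfb, the corresponding enzyme of the alternative pathway, had 36.8, 38.7 and 22.7 in the 22-week aortas and 69.7, 72.8 and 58.0 in the 6-week aortas (-1.04 ± 0.31, adjusted p 0.157). C1ra, the partner protease of C1s1, lay at -0.69 ± 0.22. The complement median lay between -0.83 and -0.51 with any 1 library left out. Erythroid transcripts were likewise lower in every 22-week aorta (median -1.79), and their part in the immune values was not tested.

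Genes of antigen presentation gave a like picture. All 9 measured MHC class II genes lay below 0 (median -0.86), and 5 had groups that did not overlap, against 6.15% of all genes that were lower in that way. H2-Aa, an MHC class II alpha chain, had 35.1, 54.3 and 19.8 in the 22-week aortas and 98.8, 58.9 and 70.7 in the 6-week aortas (-1.12 ± 0.39, adjusted p 0.242). Cd74, the invariant chain, had 87.3, 120.4 and 51.0 in the 22-week aortas and 232.3, 145.8 and 161.1 in the 6-week aortas (-1.11 ± 0.39, adjusted p 0.255). H2-Ab1 (-1.02 ± 0.39) and H2-DMb1 (-0.86 ± 0.35) followed them. In all 4 the second 22-week library was the highest of its group and the first 6-week library the highest of all. Of 26 interferon-stimulated genes 24 lay below 0 (median -0.51, or -0.28 without 22 weeks replicate 3) and 8 did so without overlap (6.15% of all genes), among them Psmb9 (-1.11 ± 0.35) and Tap1 (-0.88 ± 0.29) of peptide processing, Gbp2, a guanylate-binding protein (-0.65 ± 0.24), and Ifit3 (-0.996 ± 0.38).

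Macrophage genes had 17 of 18 members below 0 with a median of -0.52, which was -0.14 without 22 weeks replicate 3. Csf1r, the growth factor receptor of macrophages, had 38.0, 40.02 and 21.8 in the 22-week aortas and 73.2, 60.8 and 47.3 in the 6-week aortas (-0.87 ± 0.28, adjusted p 0.209). Folr2 (-0.86 ± 0.33) and Tyrobp (-0.72 ± 0.36) did not overlap either, whereas Mrc1 did. All 19 lymphocyte genes lay below 0 (median -0.88, or -0.42 without 6 weeks replicate 1), 5 of them without overlap (6.15% of all genes), and among the 4 of smallest p these were Jchain and Cd79b, with Cd2 and Ighm overlapping. The summed lymphocyte level was 82.3, 95.6 and 26.1 in the 22-week aortas and 340.9, 65.4 and 144.2 in the 6-week aortas. The sum of 6 thymic genes ran alongside it, with 29.4, 24.4 and 2.97 in the 22-week aortas and 128.3, 3.04 and 43.8 in the 6-week aortas, and its part in the lymphocyte values was not tested. All 6 mast cell genes lay below 0 (median -0.83, or -0.51 without 22 weeks replicate 3), led by the proteases Tpsb2 (-1.28 ± 0.37, adjusted p 0.154), Mcpt4 (-1.13 ± 0.36, adjusted p 0.187), Cpa3 and Cma1.

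**Figure D4:**
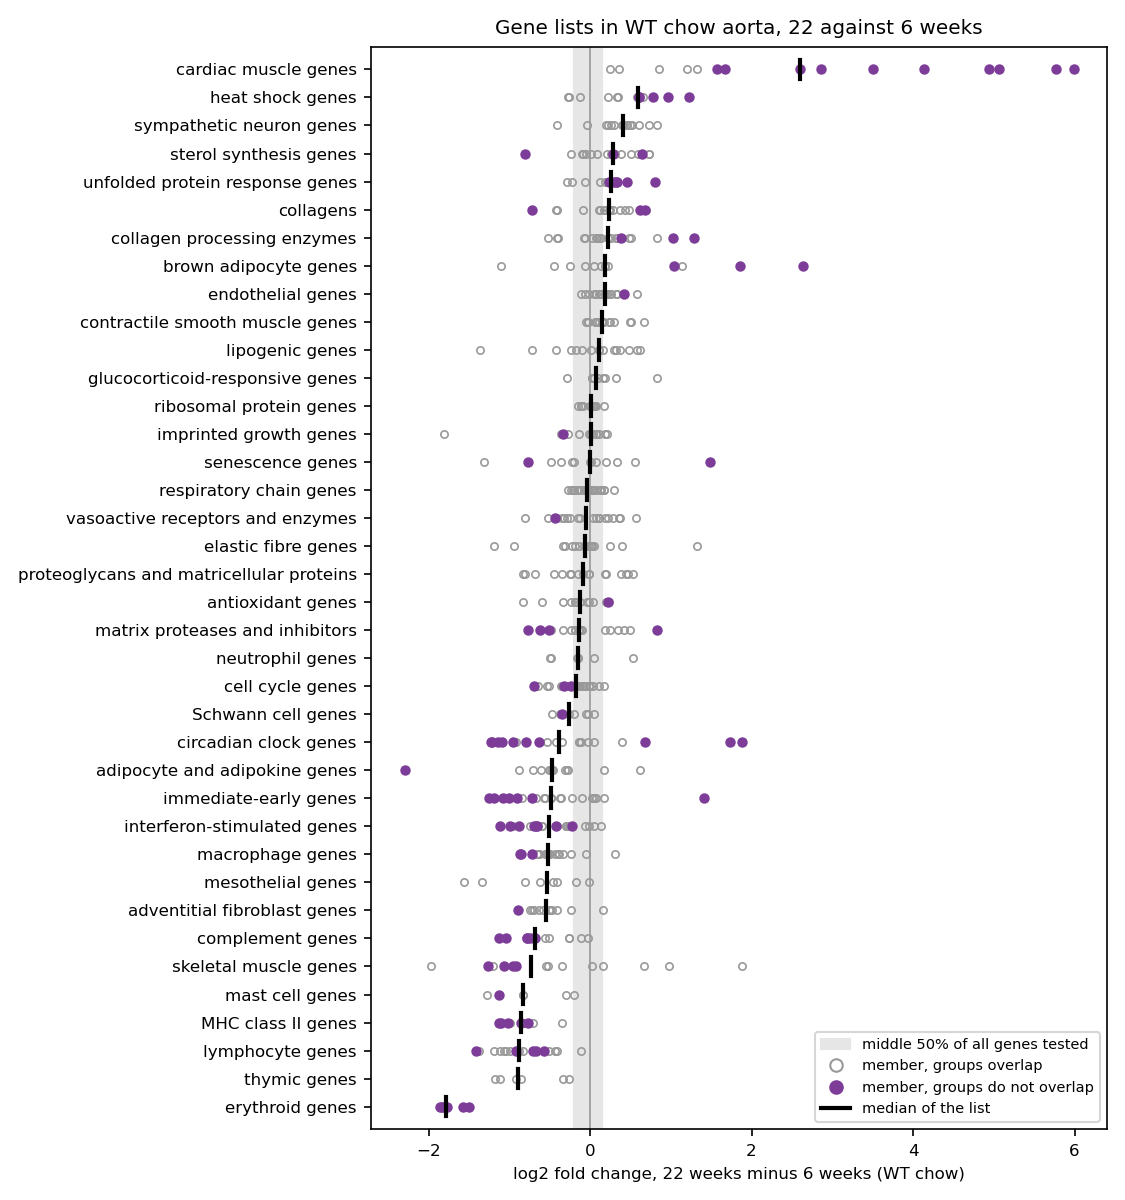
Log2 fold changes, 22 weeks minus 6 weeks in WT on chow, of the members of 38 gene lists, 1 point per gene, filled where the groups do not overlap, with a bar at the list median and the middle 50% of all genes shaded. Cardiac muscle (2.59) and heat shock genes (0.60) have the highest medians and erythroid genes (-1.79) the lowest, followed by thymic, lymphocyte, MHC class II and mast cell genes.

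Matrix genes lay on both sides of 0. Of 17 collagens 13 lay above 0, and none passed in this list, which does not hold Col7a1. Col4a1, a chain of basement membrane collagen, had 1043, 939.3 and 1526 in the 22-week aortas and 656.8, 692.7 and 791.3 in the 6-week aortas (0.68 ± 0.23, adjusted p 0.218). Its partner Col4a2 had 716.8, 702.8 and 1279 in the 22-week aortas and 494.8, 548.7 and 650.7 in the 6-week aortas (0.62 ± 0.24, adjusted p 0.309). Col12a1 lay below 0 without overlap (-0.72 ± 0.30), and Col15a1 overlapped (0.69 ± 0.34). The collagen median was 0.24, but it was 0.76 without 22 weeks replicate 2 and -0.10 without 22 weeks replicate 3. Enzymes that process collagen had 16 of 21 members above 0 (median 0.22, or -0.08 without 22 weeks replicate 3). P4ha1, a prolyl hydroxylase, had 102.9, 96.1 and 100.9 in the 22-week aortas and 49.5, 47.9 and 47.6 in the 6-week aortas (1.03 ± 0.28, adjusted p 0.118). Lox, which crosslinks collagen and elastin, had 191.6, 90.8 and 176.5 in the 22-week aortas and 42.4, 63.5 and 75.1 in the 6-week aortas (1.29 ± 0.40, adjusted p 0.176). P4ha2 (0.83 ± 0.25) overlapped between the groups and Plod1 (0.38 ± 0.16) did not.

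Elastic fibre genes went either way, with 6 of 16 above 0 and all overlapping. Eln, elastin, had 4393, 1527 and 7648 in the 22-week aortas and 950.1, 1489 and 2285 in the 6-week aortas (1.33 ± 0.55, adjusted p 0.349). Efemp1, a fibulin, had 51.2, 23.0 and 13.1 in the 22-week aortas and 71.6, 64.2 and 43.3 in the 6-week aortas (-1.19 ± 0.30, adjusted p 0.0817), and Emilin2 was also below 0 (-0.95 ± 0.29). Contractile smooth muscle genes were 14 of 17 above 0 with a median of 0.15 and no member without overlap, and the median was -0.34 without 22 weeks replicate 3 and -0.21 without 6 weeks replicate 1. Acta2 alone spanned 3328 to 15910 among the 22-week aortas and 3430 to 10220 among the 6-week aortas. Adventitial fibroblast genes were 11 of 12 below 0 (median -0.55, or -0.27 without 22 weeks replicate 2), and Scara5 was the 1 without overlap, with 89.4, 57.9 and 52.1 in the 22-week aortas and 111.7, 151.4 and 104.0 in the 6-week aortas (-0.89 ± 0.27, adjusted p 0.178). Of 30 cell cycle genes 27 lay below 0, with a median of -0.18, which was 0.04 without 6 weeks replicate 1. The 13 senescence genes were split, with a median of 0.00, and apart from Cdkn1a the nearest to the threshold was Igfbp5, which had 883.0, 271.6 and 293.8 in the 22-week aortas and 1071, 1254 and 812.8 in the 6-week aortas (-1.31 ± 0.32, adjusted p 0.0687).

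The same interval of 6 to 22 weeks gave 945 genes in WT on WD (6.68%, with 3.21% higher and 3.46% lower at 22 weeks), 3829 in EKO on chow (27%, with 13.3% higher and 13.7% lower) and 1 in EKO/hA-I on chow (0.00706%, with 12.2% of genes at an unadjusted p under 0.05 and 2 libraries at 6 weeks). The difference itself, the change in WT on chow minus the change in WT on WD, passed for 1389 genes (9.81%), 693 of them positive (4.9%) and 696 negative (4.92%). With 4 tissue terms in the fit it passed for 193 genes, 116 of them among the 1389. Against EKO on chow it passed for 2135 genes (15.1%, with 7.76% positive and 7.32% negative), and against EKO/hA-I on chow for 0, with 1046 (7.39%) at an unadjusted p under 0.05. Across all genes the change in WT on chow correlated with that in WT on WD at r = -0.37, with that in EKO on chow at -0.22 and with that in EKO/hA-I on chow at 0.18. These describe 14157 genes of 1 table, which are not independent of each other.

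None of the 17 genes that passed in WT on chow changed in the same direction in WT on WD (36% of all genes did). On WD 8 of the 17 passed in the opposite direction, where 6.68% of all genes passed in either direction. Among the 8 were Col7a1, Cars, Angpt1, Ptpn13, Gng7, Plce1 and Ccl24. Others hardly changed on WD, such as Fbxo36 (0.03 ± 0.16) and Sec22b (-0.11 ± 0.09). The difference between the diets passed for all 17 (9.81% of all genes), but these genes were chosen for their change on chow, which is 1 side of that difference. Ptpn13 averaged 7.54 ± 2.18 in WT on chow for 22 weeks and 14.6 ± 0.730 for 6 weeks, against 13.6 ± 1.24 in WT on WD for 22 weeks and 7.83 ± 0.990 for 6 weeks (SD, n = 3 each). Its change on WD was 0.73 ± 0.14 (adjusted p 0.0054). Col7a1 averaged 16.3 ± 1.86 in WT on chow for 22 weeks and 6.58 ± 2.61 for 6 weeks, against 5.75 ± 1.24 in WT on WD for 22 weeks and 13.3 ± 3.21 for 6 weeks. On WD it fell by 1.07 ± 0.23 (adjusted p 0.00765). Ccl11 averaged 9.27 ± 2.47 in WT on chow for 22 weeks and 29.7 ± 4.61 for 6 weeks, against 25.03 ± 2.29 in WT on WD for 22 weeks and 15.2 ± 2.36 for 6 weeks, where the difference of 0.69 ± 0.25 did not pass (adjusted p 0.0848). Cdkn1a, which had not passed on chow, averaged 35.6 ± 7.46 in WT on WD for 22 weeks and 115.1 ± 15.1 for 6 weeks and fell there by 1.68 ± 0.33 (adjusted p 0.00511). The chow minus WD difference of Cdkn1a was 3.16 ± 0.47 (adjusted p 0.000448). In each of these genes the level on WD at 6 weeks was nearer to the level on chow at 22 weeks than to that at 6 weeks.

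The counts by list that follow come from the fit without tissue terms. Lists were not counted for this difference with the 4 tissue terms, with which it passed for 193 genes in all. The chow minus WD difference passed for 8 of 15 heat shock genes and 7 of 17 endothelial genes, all positive (4.9% of all genes were). It was negative (4.92% of all genes) where it passed in 6 of 14 complement genes, in 4 of 6 mast cell genes and in 5 of 6 erythroid genes, and in 7 of the 8 adventitial fibroblast genes that passed. In WT on WD 1 library at 22 weeks, replicate 3, carries a genotype tag of EKO and a title of WT, and its Apoe was 540.4. Without it 1524 genes passed the difference, and without replicate 3 of WT on chow for 6 weeks 913 did.

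Against EKO on chow the 17 genes divided. The difference passed for 14 of them (15.1% of all genes), all but Col7a1, Manf and Plce1. These genes were chosen for their change in WT on chow, which is 1 side of that difference. In EKO on chow itself 9 of the 17 had the same direction as in WT on chow (43.2% of all genes did). There 1 passed in the same direction and 4 in the opposite direction, where 27% of all genes passed in either direction. Plce1 was the gene that also passed in EKO on chow in the same direction, with 36.8 ± 4.01 at 22 weeks and 48.3 ± 3.97 at 6 weeks in EKO (-0.39 ± 0.14, adjusted p 0.0403). Selenbp1 and Gdf5 rose in EKO on chow, Selenbp1 to 87.2 ± 13.5 at 22 weeks, against 59.7 ± 3.69 at 6 weeks (0.53 ± 0.15, adjusted p 0.0132), and Gdf5 to 4.10 ± 1.32 at 22 weeks, against 1.75 ± 0.453 at 6 weeks (0.87 ± 0.32, adjusted p 0.0454). Sec22b and Tial1 fell there. By list, the WT minus EKO difference was positive (7.76% of all genes) where it passed in 6 of 17 collagens, 6 of 21 collagen processing enzymes and 6 of 15 cardiac muscle genes. It was negative (7.32% of all genes) where it passed in 7 of 9 MHC class II genes, 9 of 18 macrophage genes and 9 of 26 respiratory chain genes, and 4 of 13 brown adipocyte genes passed on the same side. The count of this difference depended on single WT libraries, and it was 3360 without 22 weeks replicate 2, 1150 without 22 weeks replicate 1, 1200 without 6 weeks replicate 2 and 712 without 6 weeks replicate 1.

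In EKO/hA-I on chow 13 of the 17 genes had the same direction as in WT on chow (57.2% of all genes did) and none passed. Ccl11 averaged 18.8 ± 7.19 in EKO/hA-I on chow for 22 weeks (SD, n = 3) and 32.4 ± 1.96 for 6 weeks (SD, n = 2), a difference of -0.81 ± 0.28. Gdf5 averaged 0.979 ± 0.0664 for 22 weeks and 3.01 ± 1.59 for 6 weeks there (-0.96 ± 0.36).

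**Figure D5:**
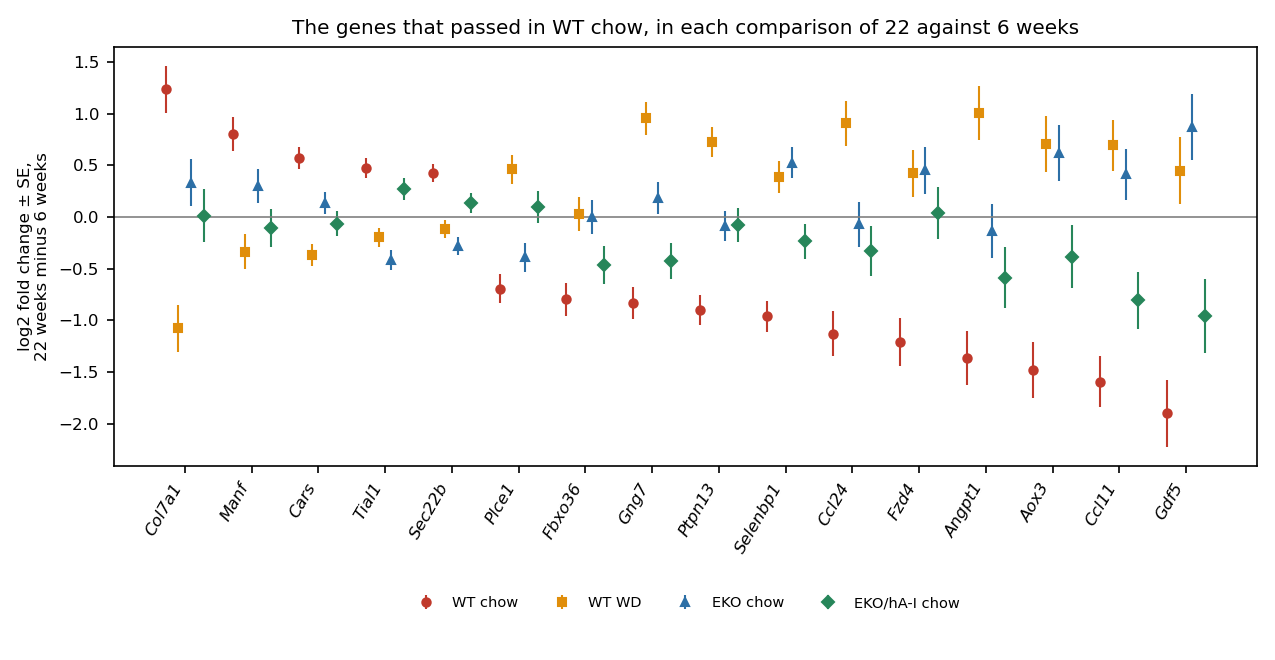
Log2 fold change ± SE, 22 weeks minus 6 weeks, of 16 of the 17 genes that passed in WT on chow (red), in WT on WD (orange), EKO on chow (blue) and EKO/hA-I on chow (green). The genes were chosen for the red points. None of the orange points lies on the side of its red point, and 12 of the 16 green points do.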

How the data were processed

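Total RNA of whole mouse aortas was sequenced, and the authors deposited 1 table of normalised signal per gene (14174 genes, 35 libraries). Per the submitters' processing notes, Bowtie 0.12.2, Bowtie2 and RSEM were used with the builds mm8 and mm9; the role of each and the strand setting are not given in the sources used here, so overlapping or antisense genes are uncertain. Between 76.4% and 80.2% of low values (up to 1.5) were whole multiples of 1 read within 0.02 of a read, too few for a test on counts. Values were taken as log2(value + 1), genes that did not reach 1 in 3 or more libraries were dropped (17), and 1 limma fit (version 3.58.1, R 4.3.3, robust, with intensity trend) held all 35 libraries in 12 groups, with 23 residual degrees of freedom. A fold change on this scale understates the change of low genes. The script was tested on simulated data. Named genes were up to 12 per direction of largest size among those that passed without overlap at a mean log2 of at least 2, filled by smallest p, plus up to 4 members per list of smallest p; Gdf5 and Ccl24 fall outside the rule and were named after their values were seen, as were further list members. The comparison and its 40 lists were chosen with earlier results of these data known. One gene that passed and one erythroid gene are counted but not reported here by name. Promoter sequences came from RefSeq (GRCm38.p6) and were matched by symbol. Alternatives covered scaling, pseudocount, filter, variance model, replicate block, sex, tissue markers and each library left out.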

Additional observations from a re-analysis of the deposited data

Results flagged for a closer look

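The change over 16 weeks was set against the same interval in groups that share no library with WT on chow, by limma's test of the difference, and each value here is one for which that difference passed at an adjusted p under 0.05. It did for 1389 genes against WT on WD and for 2135 against EKO on chow, and with 4 tissue terms in the fit for 193 and 1262. The genes named were chosen for their change in WT on chow, which enters the difference.

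Against WT on WD it passed for all 17 genes that passed in WT on chow, 16 of which are named here. For secreted signals and receptors the change on chow minus that on WD was -2.37 for Angpt1, -2.35 for Gdf5, -2.29 for Ccl11, -2.04 for Ccl24 and -1.63 for Fzd4. For intracellular signalling genes it was -1.79 for Gng7, -1.63 for Ptpn13 and -1.16 for Plce1. For enzymes and other proteins it was -2.19 for Aox3, -1.35 for Selenbp1 and -0.82 for Fbxo36. On the positive side it was 2.31 for Col7a1, 1.14 for Manf, 0.93 for Cars, 0.67 for Tial1 and 0.54 for Sec22b.

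Against EKO on chow it passed for 14 of the 17. The change in WT minus that in EKO was -2.77 for Gdf5, -2.10 for Aox3, -2.01 for Ccl11, -1.66 for Fzd4, -1.49 for Selenbp1 and -1.23 for Angpt1. It was -1.06 for Ccl24, -1.02 for Gng7, -0.81 for Ptpn13 and -0.80 for Fbxo36. It was 0.44 for Cars, 0.71 for Sec22b and 0.89 for Tial1.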

How the results depend on the processing

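The count of 17 genes in WT on chow was 36 after median-ratio scaling, 29 without variance trend and robust fit, 39 with a term for sex, 467 with a term for brown adipocyte markers and 54 with 4 tissue terms (9 of the 17 among them). It was 5 after quantile normalisation and 0 with the 6 libraries alone (756 at an unadjusted p under 0.05). Among terms added after the data were seen, cardiac muscle markers gave 1 (1113 unadjusted) and erythroid markers 10. With 1 library left out it lay between 3 and 91. The other pseudocounts and filters gave 13 to 21. The difference from WT on WD (1389 genes) fell to 193 with 4 tissue terms and lay between 913 and 1531 with 1 library left out; that from EKO on chow (2135 genes) fell to 1262 and lay between 712 and 3360. The causes were not tested. None of the 17 genes that passed and the 9 added by the naming rule without passing changed direction under any alternative run. Of their values, 343 stayed on the same side of the threshold, 132 lost the call and 40 gained it. Other genes near the threshold were not followed in this way. Among list medians 754 values moved by less than 1 SD and 26 by more. The SD is that of the list's mean log2 level between libraries within the groups, from 0.12 to 3.16 by list. A median could thus change sign within 1 SD. The sympathetic neuron median of 0.41 (SD 1.46) was -0.55 without 6 weeks replicate 1. The contractile smooth muscle median of 0.15 (SD 0.81) was -0.34 without 22 weeks replicate 3. The complement and MHC class II medians changed sign under no alternative. The cardiac muscle median of 2.59 was -0.16 with the 4 tissue terms, which hold those markers.

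With the replicate number as a block 32 genes passed, 10 of the 17 among them, and the differences counted 1535 and 2436. Same-numbered libraries deviated from their group means with correlations of -0.016, 0.165 and 0.34, against -0.426 to 0.29 for other pairs, and not every library correlated best with its own number, so the numbers were not taken to pair the samples.

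Low genes such as Gdf5 and Ccl24 rest partly on values near 1, where 1 unit stands for 8.55 to 15.6 reads. Their differences depended on the pseudocount. At a pseudocount of 5 they were -0.92 for Gdf5 and -0.54 for Ccl24, against -1.90 and -1.13 at 1. At a pseudocount of 1 the SE of Gdf5 (0.322) was above those of the higher genes Ccl11 (0.248) and Fzd4 (0.228). That of Ccl24 (0.218) was below both.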

Other observations

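Immediate-early genes, which respond within minutes to stimulation or tissue handling, had 16 of 21 members below 0 with a median of -0.49 (-0.15 without 6 weeks replicate 3), and none passed. Btg2, an antiproliferative immediate-early gene, had 56.1, 50.4 and 75.8 in the 22-week aortas and 98.1, 121.4 and 120.9 in the 6-week aortas (-0.91 ± 0.34, adjusted p 0.282 in limma). Myc had 7.36, 6.19 and 1.80 in the 22-week aortas and 12.2, 10.5 and 7.88 in the 6-week aortas (-1.001 ± 0.36, adjusted p 0.26 in limma). Nr4a3, an orphan nuclear receptor, lay on the other side, with 26.1, 20.5 and 21.2 in the 22-week aortas and 6.93, 3.04 and 20.4 in the 6-week aortas (1.41 ± 0.69).

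Among fat genes other than those of brown adipocytes, Lep, which encodes leptin, had 5.26, 13.5 and 4.11 in the 22-week aortas and 15.4, 38.8 and 82.6 in the 6-week aortas (-2.29 ± 0.63, adjusted p 0.117 in limma). Of 13 adipocyte and adipokine genes 11 lay below 0, with a median of -0.47, which was -0.87 without 22 weeks replicate 2 and -0.27 without 22 weeks replicate 1. Sterol synthesis genes were 14 of 19 above 0 (median 0.28, or 0.03 without 22 weeks replicate 2), while Fdft1, squalene synthase, lay below 0 without overlap (-0.81 ± 0.30).

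In root mean square log2 distance, aortas of WT on chow for 22 weeks lay at a median of 0.543 from those of WT on WD for 6 weeks, against 0.587 from those of WT on chow for 6 weeks and 0.672 from those of WT on WD for 22 weeks.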
